A study of Mus musculus with 16 samples.

Results

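Trim12a, Trim30d, Ifi208, Ifi213, Gbp2b and Ifi44l are 6 immune genes whose lung levels differed between wild-type and Vldlr knockout mice, or split within the wild-type mice, under both treatments. They were chosen by those values: the KO and WT levels under each treatment selected the genes, so the genotype differences below are a description, with no test. Each gene stands for the probe set that the array annotation gives to it alone, and each had 1 such probe set. They are 6 of the 19938 genes measured.

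RNA of whole mouse lung was hybridised to 16 Affymetrix arrays, 4 in each of 4 groups. Wild-type mice (WT) were of the strain B6129SF2/J. Knockout mice (KO) were Vldlr-/-, without the receptor for very low density lipoprotein, and their labels name no strain. Mice of each genotype were dosed through the nose with saline or with house dust mite (HDM), an allergen extract that gives an asthma model: 25 µg of HDM in 10 µl, on 5 days a week for 6 weeks. The labels give no age. They call the 4 samples of a group biological replicates but do not say how many animals each RNA came from, and the p-values below cover only the variation among such samples. B6129SF2/J is known as a second-generation cross of C57BL/6J with another inbred strain, in which each animal inherits its own mixture of the parental alleles. The KO strain being unlabelled, loss of Vldlr and strain background cannot be told apart in any genotype difference here. In bulk tissue, fewer cells of a type and less RNA per cell cannot be told apart either.

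All 6 genes belong to families of innate immunity. TRIM proteins of the Trim5 and Trim30 group are ubiquitin ligases of the cytoplasm, known for restricting retroviruses and for damping inflammatory signalling. The Ifi200 family, on the same chromosome as Aim2, encodes proteins with domains that bind DNA or join inflammasome partners. Guanylate-binding proteins, of which Gbp2b (formerly Gbp1) is one, are large GTPases that assemble on the vacuoles of intracellular pathogens. Ifi44l is an interferon-induced gene with antiviral activity. Interferons act through receptors, Jak kinases and transcription factors such as Stat2 and Irf9, which act at the interferon-stimulated response element in the promoters of their targets. The Trim, Ifi200 and guanylate-binding protein genes are clustered families, copied in tandem, that vary among inbred mouse strains in gene content and expression.

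The 6 genes lie on 3 chromosomes: Trim12a and Trim30d on chromosome 7, Ifi208 and Ifi213 on chromosome 1, and Gbp2b and Ifi44l on chromosome 3. Vldlr is on chromosome 19. Promoter sequences were matched for 6 of 6 genes in RefSeq (GRCm38.p6), each from 250 bases before to 50 after the gene's start. They are shown because interferon response is what the families share and the rule did not use. The core of the response element, searched on both strands as 2 copies of GAAA with any 2 bases between them, was in 5 of the 6 promoters, those of all but Ifi44l. It was in 1131 of 32851 promoters of that length (3.44%) and in 35 of 85 promoters of the related genes described below (41.2%). The interferon gamma-activated core, TTCNNNGAA, was in 0 of 6, against 8.3% of all promoters and 20% of those of related genes. With no match to the second core, no match of one overlapped the other. Each run is 30 bases, 5′ to 3′ on the gene's strand, with the core in capitals. It lies at chr1:173599326-173599355 (minus strand) for Ifi213, chr1:173673597-173673626 (plus) for Ifi208, chr3:142594700-142594729 (plus) for Gbp2b, chr7:104315466-104315495 (minus) for Trim12a and chr7:104507871-104507900 (minus) for Trim30d.
Ifi213: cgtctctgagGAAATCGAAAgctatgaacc
Ifi208: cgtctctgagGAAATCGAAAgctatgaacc
Gbp2b: gtacttctaaTTTCACTTTCttctttatca
Trim12a: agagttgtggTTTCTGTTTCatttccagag
Trim30d: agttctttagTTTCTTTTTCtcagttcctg
The first base of the core lay 73, 58, 137 and 41 bases before the start in Ifi213, Ifi208, Gbp2b and Trim30d, and was base 11 after it in Trim12a, whose window lies past the start. The Ifi213 and Ifi208 windows are the same 30 bases, so their matches are not separate ones in the count of 5. A match is a description of the reference genome, which is that of C57BL/6J and not of these animals.

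The likeness of Ifi208 and Ifi213 extends over most of their upstream sequence, which is shown because it bears on how far the 2 signals are separate. The 250 bases before each start lie at chr1:173673415-173673664 (plus strand) and chr1:173599273-173599522 (minus strand). Over the 235 bases that could be aligned, 233 were identical (99.1%). The core is again in capitals.
Ifi208: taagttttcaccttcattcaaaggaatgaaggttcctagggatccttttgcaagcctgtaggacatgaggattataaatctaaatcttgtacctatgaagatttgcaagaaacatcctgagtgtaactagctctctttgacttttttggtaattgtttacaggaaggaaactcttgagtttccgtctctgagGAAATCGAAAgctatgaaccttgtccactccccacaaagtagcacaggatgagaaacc
Ifi213: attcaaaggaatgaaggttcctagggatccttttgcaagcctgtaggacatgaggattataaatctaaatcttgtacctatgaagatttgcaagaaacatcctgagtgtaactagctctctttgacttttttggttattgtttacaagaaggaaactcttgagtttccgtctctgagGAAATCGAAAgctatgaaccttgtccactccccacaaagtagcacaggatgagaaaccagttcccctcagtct
Probe sequences were not used here. How much of the signal of one paralogue comes from another, and whether a low signal is fewer transcripts or a sequence difference under the probes, was not tested and cannot be told apart from these values. This holds for all 6 genes.

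The labels were checked first. Vldlr read 10.59 ± 0.11 in WT saline, 10.56 ± 0.27 in WT HDM, 9.83 ± 0.07 in KO saline and 9.63 ± 0.21 in KO HDM (log2 level, mean ± SD, n = 4). All 8 KO arrays lay below all 8 WT arrays, and the labels do not say where the disruption lies relative to the probes. All 9 lung markers were measured on every array, among them Sftpc (surfactant protein C, of alveolar type 2 cells) at 13.41 to 14.09 and Cldn5 (of endothelium) at 12.58 to 12.98. WT saline 2 and 3 were known from earlier results to stand apart. Rnase2a, a ribonuclease of eosinophils and macrophages named for this reason, read 11.47 and 11.22 on them against 8.54 and 9.68 on WT saline 1 and 4. It read 11.40, 11.27, 12.42 and 11.54 in WT HDM, and 8.26, 7.55, 8.09 and 6.63 in KO saline. WT saline 2 and 3 thus lay near the WT HDM level of this gene. Results that use WT saline are therefore also given without WT saline 2 and 3 where they change. Levels below are the deposited log2 values, replicates in the order 1 to 4, and levels of different genes are not compared.

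Trim12a, of the Trim5 group, was at 1 of 2 separated levels on each array. On the WT saline arrays it read 6.60, 6.45, 9.63 and 8.86. WT HDM arrays read 9.31, 9.83, 9.53 and 9.34. In KO saline the values were 6.86, 6.69, 6.67 and 6.66, and in KO HDM 6.46, 6.72, 6.81 and 7.16. WT saline 1 and 2 thus lay among the knockouts, while WT saline 3 and 4 lay with WT HDM. No array read between 7.16 and 8.86, a gap of 1.70. Trim30d, of the Trim30 group, split the same arrays. It read 6.60, 6.42, 9.42 and 9.22 in WT saline and 8.88, 9.24, 8.95 and 9.10 in WT HDM. The KO saline values were 6.63, 6.79, 6.73 and 6.53, and the KO HDM values 6.85, 7.16, 7.24 and 7.03. The empty interval ran from 7.24 to 8.88, a gap of 1.64, with the same 10 arrays below it. Of WT saline 2 and 3, the pair set apart by Rnase2a, 1 lay on each side of the split. Whether what sets this pair apart has a part in the split was not tested.

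The order of the group means was the same for both Trim genes: WT HDM, then WT saline, KO HDM and KO saline. For Trim12a they were 9.50 ± 0.24, 7.89 ± 1.60, 6.79 ± 0.29 and 6.72 ± 0.09 (SD, n = 4), and every neighbouring pair overlapped. For Trim30d they were 9.04 ± 0.16, 7.92 ± 1.63, 7.07 ± 0.17 and 6.67 ± 0.11, and the last 2 groups did not overlap. The WT mean was 2.25-fold the KO mean under saline and 6.57-fold under HDM for Trim12a, log2 differences of KO minus WT of -1.17 and -2.72. Trim30d had -1.25 and -1.97, or 2.38-fold and 3.93-fold. The WT saline mean falls where no array lies, so these fold changes under saline describe neither of the 2 levels. Leaving out 1 WT saline array moved the saline difference of Trim12a to -1.60, -1.65, -0.59 and -0.84 (without replicates 1 to 4 in turn) and that of Trim30d to -1.69, -1.75, -0.75 and -0.81.

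**Figure D1:**
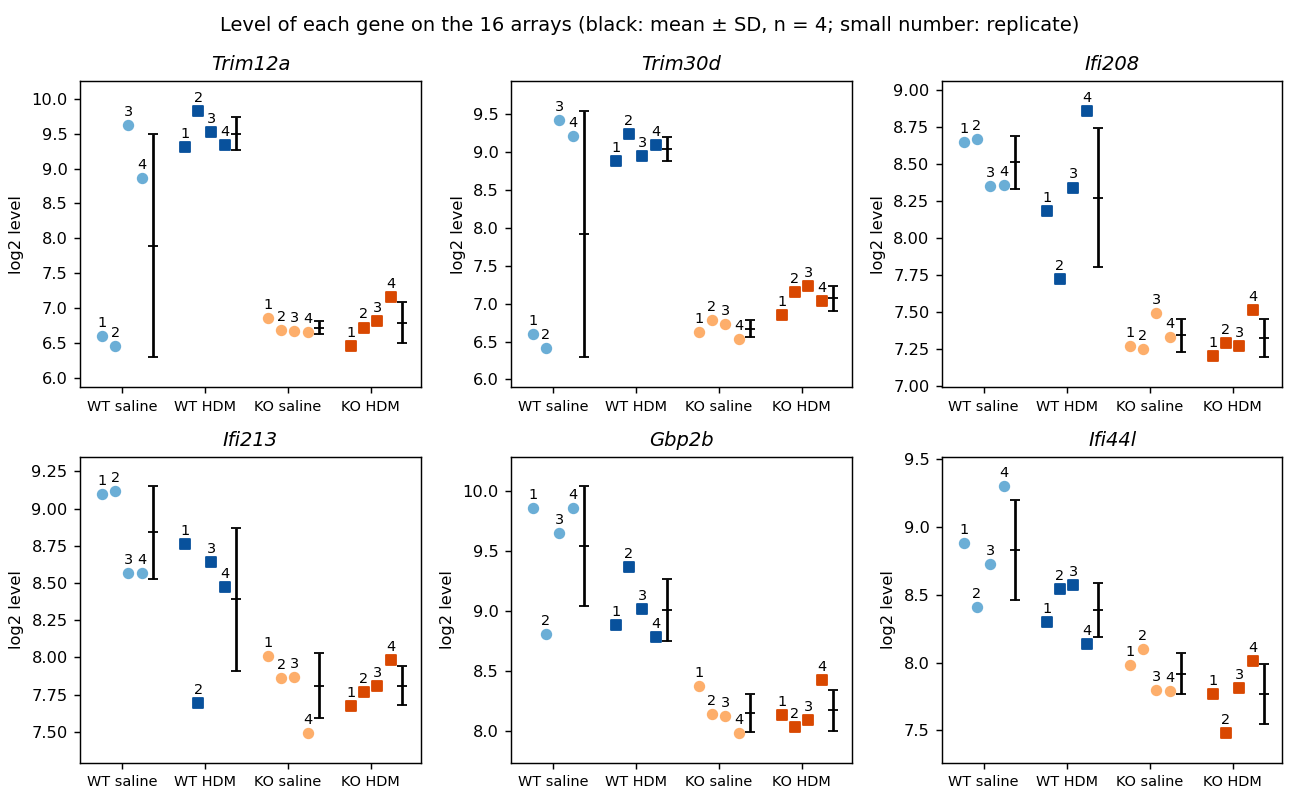
Log2 level (vertical axis) of each gene on the 16 arrays, by group, with the replicate number over each point and the mean ± SD (n = 4) in black. Trim12a and Trim30d lie low on the 8 KO arrays and on WT saline 1 and 2, and WT HDM 2 lies lowest of the WT arrays for Ifi208 and Ifi213.

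Ifi208 and Ifi213, of the Ifi200 family, separated the genotypes with 1 WT array set apart. Ifi208 read 8.65, 8.67, 8.35 and 8.36 in WT saline and 8.18, 7.72, 8.34 and 8.86 in WT HDM. KO saline gave 7.27, 7.25, 7.49 and 7.33, and KO HDM 7.20, 7.29, 7.27 and 7.51. All 8 KO arrays lay below all 8 WT arrays, with WT HDM 2 nearest to them. Ifi213 had 9.10, 9.12, 8.57 and 8.57 in WT saline and 8.76, 7.69, 8.64 and 8.47 in WT HDM. Its KO saline arrays read 8.01, 7.86, 7.87 and 7.49, and its KO HDM arrays 7.67, 7.77, 7.81 and 7.98. WT HDM 2 lay inside the KO range for this gene, and the other 7 WT arrays stood above an empty interval from 8.01 to 8.47. In both genes WT saline 1 and 2, the arrays that were low for the Trim genes, were above WT saline 3 and 4.

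Group means of Ifi208 ran 8.51 ± 0.18 in WT saline, 8.27 ± 0.47 in WT HDM, 7.34 ± 0.11 in KO saline and 7.32 ± 0.13 in KO HDM (SD, n = 4). Of the neighbours in that order, WT HDM and KO saline did not overlap, and the others did. For Ifi213 the order was WT saline at 8.84 ± 0.31, WT HDM at 8.39 ± 0.48, then KO HDM and KO saline, which both had a mean of 7.81 with SDs of 0.13 and 0.22, and each neighbouring pair overlapped. KO minus WT was -1.17 under saline and -0.96 under HDM for Ifi208 (WT 2.26-fold and 1.94-fold of KO). It was -1.03 and -0.58 for Ifi213 (2.04-fold and 1.49-fold).

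In Gbp2b and Ifi44l, the interferon-inducible genes of chromosome 3, no WT array lay among the KO arrays. Gbp2b read 9.86, 8.81, 9.65 and 9.86 in WT saline and 8.88, 9.37, 9.02 and 8.78 in WT HDM. In the knockouts it read 8.37, 8.14, 8.12 and 7.98 after saline and 8.13, 8.03, 8.09 and 8.42 after HDM. An interval of 0.36, from 8.42 to 8.78, parted the 8 KO from the 8 WT arrays. Ifi44l gave 8.88, 8.41, 8.73 and 9.30 in WT saline and 8.30, 8.54, 8.57 and 8.14 in WT HDM. Its KO values were 7.98, 8.10, 7.80 and 7.79 after saline and 7.77, 7.48, 7.81 and 8.01 after HDM. The highest KO array, 8.10, and the lowest WT array, 8.14, were all but level. The widest gap of Ifi44l, 0.42, lay within the WT arrays, between WT saline 4 at 9.30 and the next at 8.88. WT saline 2 was the lowest WT saline array for both genes, and WT HDM 4 the lowest WT HDM array.

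Gbp2b was highest in WT saline at 9.54 ± 0.50, followed by WT HDM at 9.01 ± 0.26, KO HDM at 8.17 ± 0.17 and KO saline at 8.15 ± 0.16 (SD, n = 4). Ifi44l had 8.83 ± 0.37 and 8.39 ± 0.20 in those WT groups, then 7.92 ± 0.15 in KO saline and 7.77 ± 0.22 in KO HDM. In each gene only the step from WT HDM to the next group was free of overlap. The WT level was 2.62-fold the KO level under saline and 1.80-fold under HDM for Gbp2b (log2 differences of -1.39 and -0.85), and 1.88-fold and 1.54-fold for Ifi44l (-0.91 and -0.62).

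The KO and WT arrays did not overlap for 4 of the 6 genes under saline (Ifi208, Ifi213, Gbp2b and Ifi44l) and for 5 of the 6 under HDM (all but Ifi213), beside 6.54% and 10.8% of all genes in either direction. Complete separation of the genotypes, all 8 KO below all 8 WT arrays, held for Ifi208, Gbp2b and Ifi44l, 3 of the 6, and for 40 of all genes (0.201%). The rule used this contrast, so nothing is read from these counts. The WT arrays varied more among themselves than the KO arrays for each gene. A rule that picks split levels favours this, so nothing is read from it. The SD over 8 WT arrays was 1.37 for Trim12a, 1.23 for Trim30d, 0.35 for Ifi208, 0.45 for Ifi213, 0.47 for Gbp2b and 0.36 for Ifi44l. Over 8 KO arrays it was 0.20, 0.25, 0.11, 0.17, 0.15 and 0.19 in the same order. The share of all genes with a smaller SD was 97.57% (Ifi208) to 99.97% (Trim12a) over the WT arrays. Over the KO arrays that share was 51.34% (Ifi208) to 93.67% (Trim30d). Of all genes, 39 (0.196%) had a gap of at least 1 between neighbouring WT values, Trim12a and Trim30d among them, and 5 (0.0251%) one of at least 2.

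Over the WT arrays, genes of the same chromosome varied together. Which arrays were low differed between the pairs only in part. WT saline 2 was the lowest WT saline array for Trim12a and Trim30d, and for Gbp2b and Ifi44l too. Over the 8 WT arrays the Pearson correlation of levels was 0.97 for Trim12a with Trim30d, 0.89 for Gbp2b with Ifi44l and 0.73 for Ifi208 with Ifi213. Across chromosomes it lay between -0.76 (Trim12a with Ifi213) and 0.07 (Ifi213 with Ifi44l), and was -0.09 for Trim12a with Gbp2b. Over the 8 KO arrays the same-chromosome pairs gave 0.30, 0.62 and 0.31, and those of different chromosomes from -0.35 to 0.83 (Ifi213 with Gbp2b), the highest of all pairs. These describe 8 arrays each, with HDM and saline arrays pooled, and no p is given. The rule picked split levels, and the split of the WT saline arrays enters the WT value of Trim12a with Trim30d. The correlations are therefore descriptions and support nothing.

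**Figure D2:**
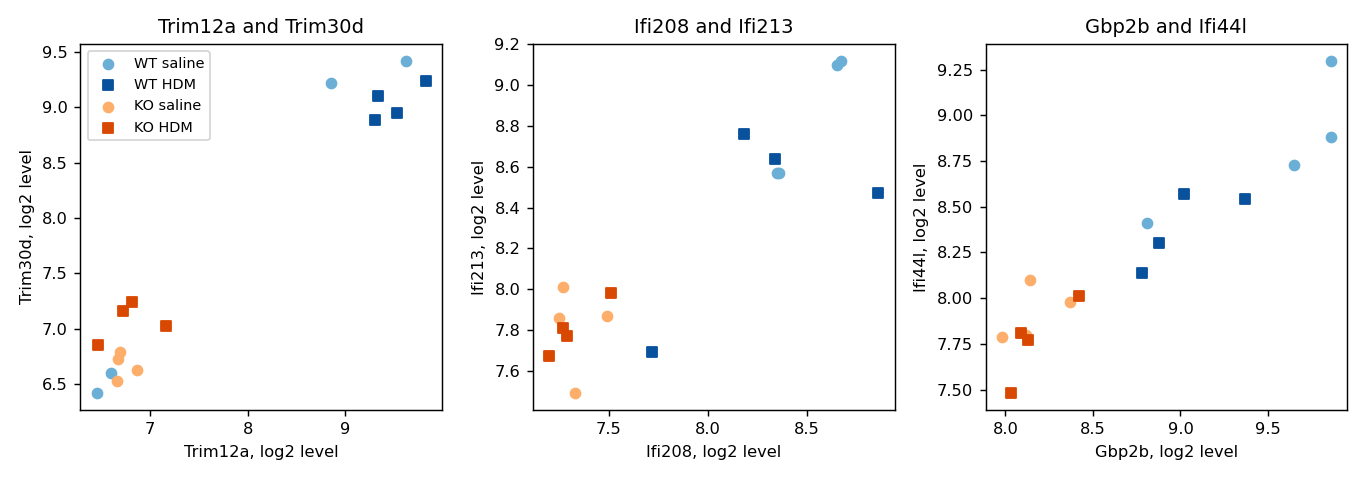
Log2 level of one gene against the other of the same chromosome, 1 point per array, coloured by group. The Trim pair forms 2 clouds with WT saline 1 and 2 in the lower one, the Ifi pair has WT HDM 2 beside the KO arrays, and Gbp2b and Ifi44l rise together along one line with the KO arrays at its lower end.

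Other probe sets share 2 of the genes with relatives. One is annotated to Trim5, Trim12c and Trim12a together. It read 8.80, 8.97, 9.90 and 9.54 in WT saline, 9.70, 9.93, 9.73 and 9.80 in WT HDM, 8.87, 8.86, 9.15 and 9.18 in KO saline, and 9.04, 9.32, 9.05 and 9.23 in KO HDM. WT saline 1 and 2 again lay with the knockouts, over a smaller range than on the probe set of Trim12a alone. The probe set annotated to Gbp2 and Gbp2b had group means of 10.60 ± 0.09 in WT saline, 10.57 ± 0.12 in WT HDM, 10.72 ± 0.17 in KO saline and 10.56 ± 0.18 in KO HDM (SD, n = 4), so the genotypes overlapped there.

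The response to HDM was compared within each genotype. The rule did not use this contrast as such, but it used the split of the WT saline arrays, which enters the WT change of Trim12a and Trim30d, so for these genes the WT change is a description and its p supports nothing. In WT, Trim12a differed by 1.62 ± 0.49 (log2 change ± SE, 3.07-fold, limma adjusted p = 0.0321, n = 4 against 4), with overlapping arrays. The WT HDM arrays lay at the level of WT saline 3 and 4. It was the 1 of 6 genes that passed an adjusted p of 0.05, beside 17.6% of all genes, of which 7.86% were higher and 9.72% lower after HDM. Trim30d changed by 1.13 ± 0.49 (adjusted p = 0.111), Ifi208 by -0.24 ± 0.16 (0.299), Ifi213 by -0.45 ± 0.19 (0.103), Gbp2b by -0.53 ± 0.18 (0.0548) and Ifi44l by -0.44 ± 0.15 (0.0536). At an unadjusted p of 0.05 (limma), 5 of the 6 passed, all but Ifi208, beside 35.2% of all genes. These 5 include Trim12a and Trim30d, and the rule used the WT levels of the other 4 as well. Nothing is therefore read from this count. By their changes the Trim genes had higher means after HDM and the other 4 lower ones.

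Single arrays decided these calls. Trim12a did not pass without WT saline 1 (1.19, adjusted p = 0.106), WT saline 2 (1.14, 0.1), WT HDM 2 (1.51, 0.0779), WT HDM 3 (1.61, 0.0516) or WT HDM 4 (1.67, 0.0583), nor in an exact two-sided permutation test (p = 0.114, or 0.343 adjusted over the 12 tests of 6 genes in 2 genotypes). Trim30d passed without WT saline 3 (1.63, 0.0253) or WT saline 4 (1.56, 0.0363), the arrays at its high level. Gbp2b passed without WT saline 2 (-0.78, 0.00186) or WT HDM 2 (-0.65, 0.0355), and Ifi208 without WT HDM 4 (-0.43, 0.0437). Ifi44l passed without WT saline 2 (-0.58, 0.017), WT HDM 3 (-0.50, 0.0472), KO HDM 2 (-0.44, 0.0488) or KO HDM 4 (-0.44, 0.0473). With WT saline 2 and 3 both left out, 3 of the 6 passed: Trim12a (1.77, 0.0179), Gbp2b (-0.85, 0.00504) and Ifi44l (-0.70, 0.0187), all p-values being limma's, adjusted over all genes.

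In the knockouts 0 of the 6 passed, by limma at an adjusted p or at an unadjusted p of 0.05, beside 8.84% (4.96% higher, 3.88% lower) and 22.7% of all genes. The changes were 0.07 ± 0.49 for Trim12a, 0.40 ± 0.49 for Trim30d, -0.02 ± 0.16 for Ifi208, 0.00 ± 0.19 for Ifi213, 0.01 ± 0.18 for Gbp2b and -0.15 ± 0.15 for Ifi44l (log2 ± SE), with adjusted p from 0.598 to 0.995. Trim30d was the exception in its arrays: the lowest KO HDM value, 6.85, lay above the highest KO saline value, 6.79, as the 4 and 4 arrays of 14.0% of all genes did not overlap in this comparison. Its exact permutation p was 0.0286, the smallest that 4 against 4 arrays allow, and 0.343 adjusted over 12 tests. The SE of 0.49 is shared by all 4 groups and takes in the WT saline SD of 1.63. A limma fit of the KO groups alone gave Trim30d an adjusted p of 0.0166. Whether the HDM changes of WT and KO differ for these genes was not tested, since that difference is the difference of the 2 genotype contrasts that picked them.

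**Figure D3:**
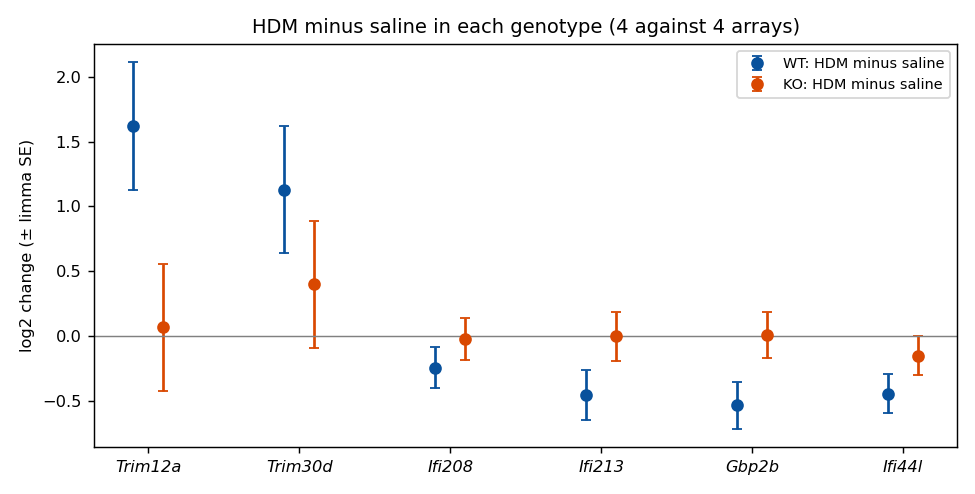
Log2 change with HDM (vertical axis, HDM minus saline) of each gene in WT (blue) and KO (orange), with limma's standard error, 4 against 4 arrays. The WT changes range from 1.62 for Trim12a to -0.53 for Gbp2b, and the KO changes from 0.40 for Trim30d to -0.15 for Ifi44l.

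Cell markers moved with HDM in the same arrays. Of 55 marker genes of lung, leukocytes and the circadian clock, 23 passed in WT (41.8%, 14 higher, 9 lower), beside 17.6% of all genes. In KO 16 passed (29.1%, 9 higher, 7 lower), beside 8.84% of all genes. Among them Ccr3 and Il5ra, receptors of eosinophils, rose in both. Of the 7 macrophage and monocyte genes, 2 rose in WT (Adgre1 and Ccr2). In KO 4 rose, those 2 among them, and 1 fell (Cx3cr1). Given as the mean level of its 7 measured genes, the macrophage and monocyte list ran from 9.86 to 10.00 in WT saline, 10.00 to 10.41 in WT HDM, 9.98 to 10.11 in KO saline and 10.10 to 10.55 in KO HDM. Between genotypes, 0 of 55 passed under saline, where 0.231% of all genes did. At an unadjusted p of 0.05 (limma) 9 passed there, beside 7.81% of all genes. The count under HDM was 15 (27.3%, 6 higher and 9 lower in KO), beside 11.7% of all genes. Clock genes were 7 of these 15, led by Dbp at -1.17. The part of any of this in the levels of the 6 genes was not tested.

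Likeness in level over the 16 arrays was ranked without predicted genes, small RNAs and segments of immunoglobulin or T cell receptor genes. For each of the 6, the 3 genes most like it included at least 1 of the same chromosome, in every case another of the 6. Trim12a and Trim30d were each other's nearest (Pearson r = 0.98, and 0.97 for deviations from the group means), followed by Ppp1r16b (0.88 and 0.85), a regulatory subunit of protein phosphatase, then by Triobp (0.88) for Trim12a and Ndrg3 (0.85) for Trim30d. Ifi213 was nearest to Ifi206 (0.92, deviations 0.80), a further Ifi200 gene, then Ifi208 (0.89) and Olfr750 (0.89). Ifi208 was nearest to Gpr137b (0.90), then Ifi213 (0.89) and Ifi206 (0.88). Gbp2b and Ifi44l were each other's nearest (0.95, deviations 0.79), followed for both by Adh6b (0.93 and 0.91), an alcohol dehydrogenase gene of chromosome 3 too. Next came Tubb4a (0.90) for Gbp2b and Arhgef15 (0.90) for Ifi44l. The arrays are shared by all genes and carry the genotype and HDM groups, so these correlations are descriptions over 16 points. The rule picked the 6 by their genotype levels, which favours their ranking near one another, so nothing is read from that ranking.

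Ifi206 followed Ifi208 and Ifi213 in its arrays. It read 8.02, 7.89, 7.36 and 7.78 in WT saline and 7.52, 6.89, 7.82 and 7.68 in WT HDM. On the KO arrays it lay between 7.00 and 7.31. WT HDM 2 was again the lowest WT array, and below all KO arrays. KO minus WT was -0.66 ± 0.16 under saline and -0.35 ± 0.16 under HDM (limma adjusted p = 0.131 and 0.168), so Ifi206 did not pass.

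**Figure D4:**
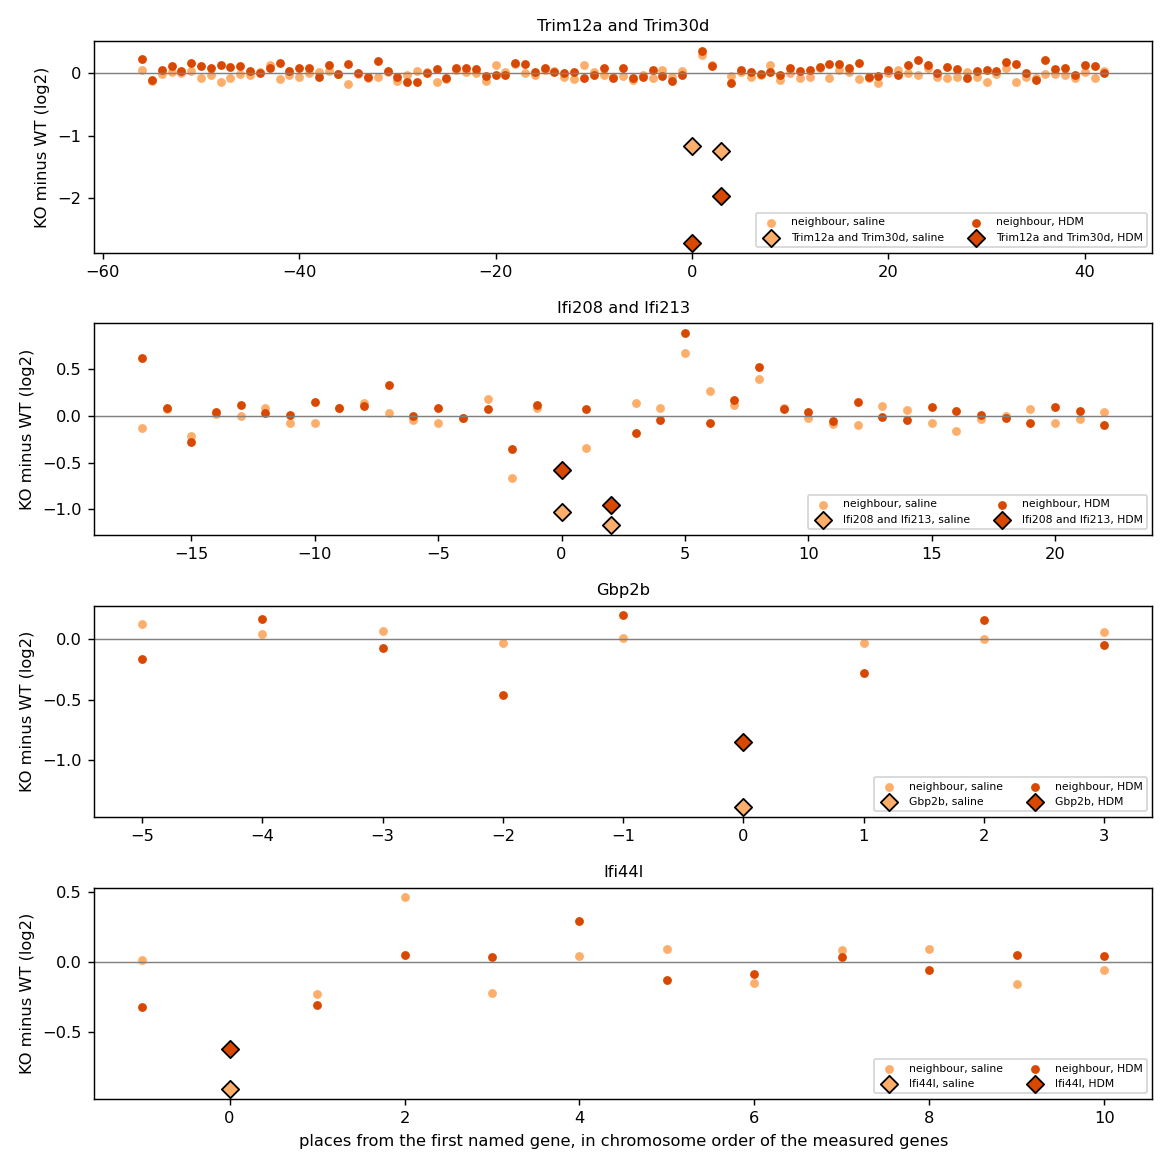
KO minus WT (log2, vertical axis) under saline (light) and HDM (dark) of every measured gene within 1 Mb of the named genes (diamonds), by its place in chromosome order counted from the first named gene of each panel. The diamonds lie between -0.58 and -2.72 and the genes beside them mostly near 0, with Ifi202b at 0.68 and 0.89, and the vertical scales differ between panels.

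The genes around the 6 were compared between genotypes as well. Within 1 Mb, 154 other genes were measured, 99 of them olfactory receptors. Under saline 1 of the 154 passed (0.649%, and 10 at an unadjusted p of 0.05), against 0.231% of all genes, 0.0903% higher and 0.140% lower in KO. That gene was Gipc2, near Ifi44l, higher in KO by 0.46 ± 0.09 (limma adjusted p = 0.0474). Under HDM 8 passed (5.19%), 5 higher and 3 lower, against 11.7% of all genes, 5.84% higher and 5.83% lower. Without the olfactory receptors they were 7 of 55 (12.7%), near the share of all genes. Near Ifi208 and Ifi213 these were Slamf8 (0.62), Ifi202b (0.89), Olfr432 (0.53) and Fcer1a (0.33), higher in KO, and Dusp23 (-0.28), lower. Near Gbp2b Kyat3 was at -0.28, and near Ifi44l Adgrl4 was at -0.32 and Fubp1 at 0.29. Around Trim12a and Trim30d 0 of 97 passed under either treatment (1 and 6 at an unadjusted p of 0.05, limma).

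Genes lying between members of a pair are given for their place, and were picked after their values were seen. Trim12c and Trim30a are the only measured genes between Trim12a and Trim30d. KO minus WT was 0.29 and 0.13 for them under saline and 0.36 and 0.12 under HDM, and neither passed. Ifi209 lies between Ifi213 and Ifi208, at -0.34 under saline and 0.08 under HDM, and did not pass. Gbp3 and Gbp7, the nearest measured genes on one side of Gbp2b, were at 0.01 and -0.03 under saline and 0.20 and -0.46 under HDM, without a call. Gipc2 lost its call in 10 of the 16 fits that left out 1 array. The neighbours called were 0 without any KO saline array, WT saline 1, 3 or 4, KO HDM 2 or WT HDM 4. Without WT HDM 2 they were 2. The 8 neighbours under HDM became 3 without KO HDM 1 or KO HDM 3, 4 without KO HDM 2 and 5 without WT HDM 4.

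Ifi202b, the Ifi200 gene called between genotypes under HDM, was higher in KO. Its level was 5.88, 6.23, 6.57 and 6.33 in WT saline and 6.61, 7.06, 7.05 and 6.65 in WT HDM. In KO saline it was 6.81, 6.83, 7.18 and 6.94, and in KO HDM 7.49, 8.31, 8.16 and 6.98. Under saline all 4 KO arrays lay above all 4 WT arrays. Of the other 7 measured Ifi200 genes, Ifi205 (0.27), Aim2 (0.18), Ifi207 (0.14), Ifi203 (0.09) and Ifi214 (0.09) had positive differences under saline too and Ifi206 (-0.66) and Ifi209 (-0.34) negative ones, none of them called. For Ifi202b, KO minus WT was 0.68 ± 0.22 under saline (limma adjusted p = 0.322) and 0.89 ± 0.22 under HDM (0.0167), a call lost without KO HDM 2 (0.0566) or KO HDM 3 (0.0617). Ifi202b encodes an inhibitor of Aim2 and is known to differ in expression among inbred strains.

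Related genes were taken as 7 lists: other Trim genes (those beside Trim12a and Trim30d and some from other chromosomes), other genes of the Ifi200 family, of the guanylate-binding proteins and of the immunity-related GTPases, type I interferon-stimulated genes, interferon signalling genes, and genes of cytosolic DNA sensing. Of 102 listed genes 77 were measured. Under saline 0 of the 77 differed between genotypes by limma (3 at an unadjusted p of 0.05), beside 0.231% of all genes, with a median KO minus WT of 0.03 against -0.01 over all genes. Their differences ran from -0.66 for Ifi206 to 0.68 for Ifi202b. The 8 Ifi200 genes span that whole range. The 9 other Trim genes lay between -0.05 and 0.29, and the 7 guanylate-binding proteins between -0.09 and 0.07. Without WT HDM 2 the count was 1.

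Under HDM 11 of the 77 passed between genotypes (14.3%, beside 11.7% of all genes), 10 higher and 1 lower in KO. The share is near that of all genes, so it is not a result about the related genes. Type I interferon-stimulated genes gave 6 of 27, all higher. They included Irf7 (0.82 ± 0.23, limma adjusted p = 0.0266), the factor that amplifies interferon transcription, and Usp18 (0.71 ± 0.19, 0.0215), which turns the response down. Oas2 (0.71), Oasl2 (0.66) and Ifit1 (0.63), antiviral effectors that sense or bind viral RNA or resemble such sensors, passed as well. The list's median was 0.19 against 0.02 over all genes. Of the signalling genes Stat2 (0.32) and Irf9 (0.30) were higher and Ifngr1, a chain of the interferon gamma receptor, lower (-0.26). Irgm1, an immunity-related GTPase, was higher by 0.27. None of the 7 guanylate-binding proteins (2 at an unadjusted p of 0.05, limma) and none of the 9 other Trim genes (1) passed.

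These calls rest on few arrays. Without KO HDM 2 the count of 11 fell to 1, and without KO HDM 3 to 2, and Ifit1, Oas2, Oasl2, Usp18 and Irf7 passed in neither case. It was 6, 4 and 3 without WT HDM 1, 2 and 4, and 19 without KO HDM 4. Without WT saline 2 and 3, which are in the fit but not in the contrast, it was 7. The interaction, that is the HDM change in KO minus that in WT, passed for 0 of the 77 (8 at an unadjusted p of 0.05, limma), beside 0.802% of all genes, and for 1 without WT HDM 3.

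**Figure D5:**
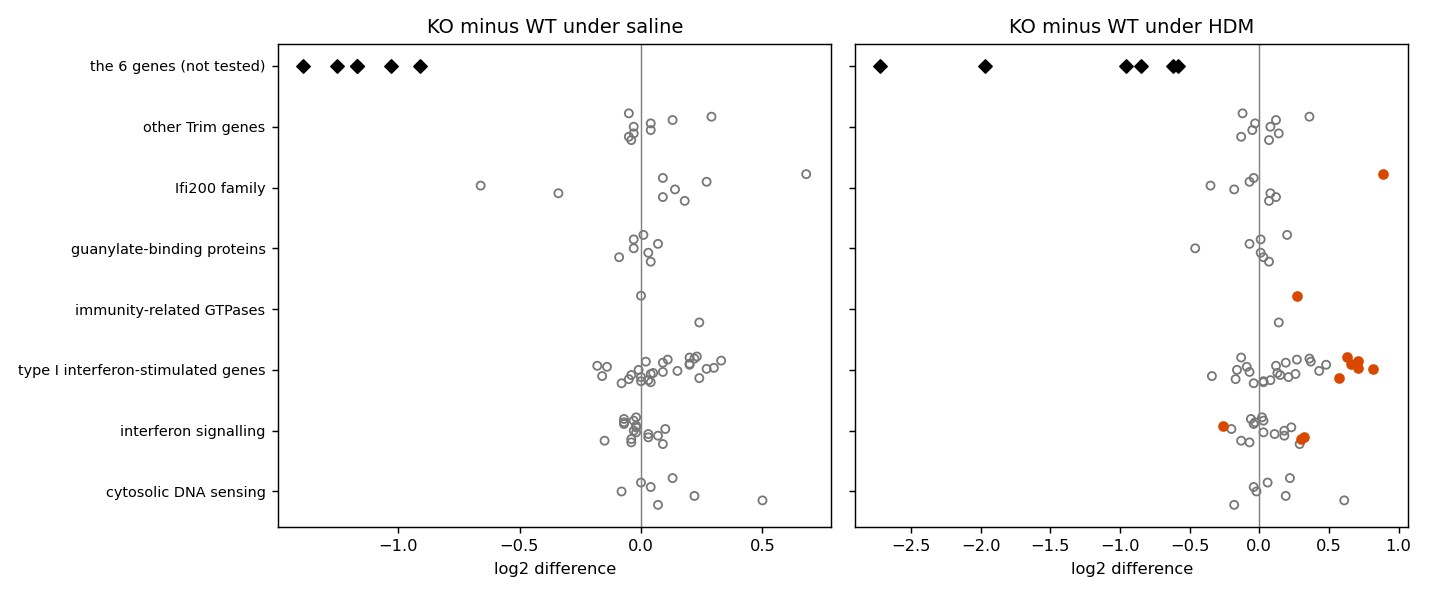
KO minus WT (log2, horizontal axis, scaled separately in each panel) under saline and HDM for the 6 genes (diamonds) and for the measured genes of each related list (circles, filled where limma's adjusted p was under 0.05, the vertical scatter being only for legibility). Under saline no circle is filled and the 6 diamonds lie left of all circles, and under HDM the filled circles lie right of 0 except Ifngr1 at -0.26.

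The related genes also responded to HDM within each genotype. In WT 8 of 77 passed (10.4%, against 17.6% of all genes), 7 higher. Ifi207 (0.77 ± 0.15, limma adjusted p = 0.00293), Aim2 (0.64 ± 0.17, 0.0187), the inflammasome sensor of cytosolic DNA, and Ifi205 (0.49) rose, in the same family as Ifi208 and Ifi213, which had -0.24 and -0.45. The family went both ways: Ifi209 (-0.48), Ifi206 (-0.29) and Ifi214 (-0.26) had negative changes too, and Ifi202b (0.59) and Ifi203 (0.13) positive ones, none of them called. Trim30a (0.44), Trim14 (0.28) and Trim6 (0.19) rose, Jak2, a kinase of the interferon gamma receptor, rose by 0.36, and Irf9 fell by 0.24. The count was 4 without WT saline 1, 5 without WT saline 3, WT saline 4 or WT HDM 2, and 3 without WT HDM 4 or without WT saline 2 and 3 together. In KO 6 of 77 passed (7.79%, against 8.84% of all genes): Ifi202b (0.80 ± 0.22, adjusted p = 0.0316), Jak2 (0.44), Trim30a (0.43), Ifngr2 (0.34) and Trim14 (0.20) rose, and Nlrp3, an inflammasome sensor, fell by 0.31. It was 3 without KO saline 1, KO saline 2, KO HDM 2 or KO HDM 3, and 14 without KO HDM 4. Type I interferon-stimulated genes gave 0 of 27 calls in either genotype (4 in WT and 3 in KO at an unadjusted p of 0.05, limma).

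A pair of genes outside the families, at which the parent strains are known to differ, is given beside the 6. C57BL/6J carries a deletion in Nnt, a mitochondrial transhydrogenase, and the other parent of B6129SF2/J a mutation that disables Casp4 (caspase-11), an inflammatory caspase of the cytosolic DNA sensing list here. Nnt, named after its values were seen, read 10.30 to 10.56 on the 8 WT arrays and 10.97 to 11.19 on the 8 KO arrays. Unlike Casp4 below, Nnt was not split within WT. Its SD over the 8 WT arrays was 0.09, and 25.64% of all genes had a smaller one. All 8 KO arrays lay above all 8 WT arrays, as they did for 28 of all genes (0.140%). Casp4 read 8.68, 9.51, 9.38 and 8.89 in WT saline and 8.53, 8.74, 9.66 and 9.32 in WT HDM. It lay between 9.37 and 9.89 on the KO arrays, so that 4 WT arrays, WT saline 1 and 4 and WT HDM 1 and 2, were apart from the others by 0.43. KO minus WT was 0.50 ± 0.22 under saline (limma adjusted p = 0.581) and 0.61 ± 0.22 under HDM (0.0757), without a call. The WT arrays low for Casp4, for the Trim genes and for the Ifi pair were thus 3 different sets that overlapped in part. WT saline 1 was low for Casp4 and the Trim genes, and WT HDM 2 for Casp4 and the Ifi pair. What this has to do with the genotype differences was not tested.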

How the data were processed

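From each whole-lung sample, 50 ng of total RNA went onto 1 Affymetrix array, per the labels' protocols, 16 arrays in all. The deposited values are log2 levels, 1 per probe set and array. Per the submitters' processing notes, RMA and Affymetrix Expression Console produced them. Tool versions and the annotation's genome build were not stated in the sources used here. RMA subtracts background, normalizes across arrays and summarises probes. Array medians were 8.78 to 8.85, and with 4 arrays a group their number limits precision.

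Of 35556 probe sets, 21789 had 1 symbol, 1621 several and 12146 none. Of those with 1 symbol, 21698 matched a reference gene (GRCm38.p6) by gene ID. Where a gene had several such probe sets (999 genes), the one with the highest mean was kept, which left 19938 genes. Values were fitted as deposited in limma 3.58.1 (R 4.3.3) with 4 group means and 12 residual degrees of freedom. P-values were two-sided and adjusted by Benjamini-Hochberg over all genes of a comparison. The fit was tested on simulated data. The 6 genes, the gene lists and the tests were chosen with earlier results of these data known. Named genes were the 6, Vldlr, up to 5 called genes per list or neighbourhood (up to 2 for marker lists), filled to 2 by the smallest p for related lists, and the 3 most alike of each gene. Exceptions are named as such.

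Alternatives were quantile and median normalization, array weights, fits of 2 groups, leaving out genes below the 25th or 50th percentile, a robust fit with a variance trend, the mean of probe sets, a replicate block, wider neighbourhoods (5 Mb), exact permutation tests, and leaving out each array, or WT saline 2 and 3.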

Additional observations from a re-analysis of the deposited data

Results flagged for a closer look

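One value of the 6 genes stood far from the others of its group. Trim12a on KO saline 1 read 6.86, against 6.66 to 6.69 on the other KO saline arrays. The gap to the nearest of them was 0.855 of the group's range, above Dixon's critical value for 4 samples. In all, 24 sets of 4 arrays were examined this way, and chance alone would give about 1 such value in 20 sets. The distance is small beside the gap of 1.70 that parts the Trim12a levels.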

How the results depend on the processing

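For the genotype differences of the 6 genes, 294 values under the alternatives all moved by less than 1 SD and 0 changed sign. That SD is wide for the split Trim genes under saline: without single arrays Trim12a ran from -1.65 to -0.59 and Trim30d from -1.75 to -0.75. For their HDM changes, 273 of 306 values kept direction and side of the threshold. In WT the count of members called was 0 with either filter at the 25th or 50th percentile, both of which leave Trim12a out, with the variance trend and with the 2 groups alone, 3 without WT saline 2 and 3, and 0 to 2 without single arrays. Trim12a missed the threshold with the variance trend (1.62, limma adjusted p = 0.0683), array weights (1.46, 0.0695), the 2 groups alone (1.62, 0.0902) and the exact permutation test (1.62, 0.343), and ran from 1.14 to 2.20 without single arrays. Trim30d ran from 0.63 to 1.63, Ifi208 from -0.43 to -0.05, Ifi213 from -0.57 to -0.21 (the latter without WT HDM 2), Gbp2b from -0.78 to -0.43 and Ifi44l from -0.58 to -0.28. Gbp2b passed with array weights (-0.56, 0.0433) and, without WT saline 2 and 3, at -0.85, as Ifi44l did at -0.70. In KO 1 member passed with the 2 groups alone (Trim30d, 0.40) and 0 without any single array. Uncalled KO changes near 0 turned sign: Trim12a to -0.01 with array weights (-0.05 to 0.18 without single arrays), Ifi208 to 0.04 with quantile normalization (-0.08 to 0.04), Ifi213 to -0.06 (-0.10 to 0.07) and Gbp2b to -0.05 (-0.07 to 0.09), both with array weights. The values behind these ranges that turned sign were -0.05 for Trim12a, 0.04 and 0.02 for Ifi208, -0.10 and -0.06 for Ifi213, and -0.04 and -0.07 for Gbp2b.

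Related genes called were 3 in WT without WT saline 2 and 3, 15 and 11 in KO with array weights and the replicate block, 2 between genotypes under saline with the 2 groups alone, and under HDM 6 with the variance trend, 1 with the 2 groups alone and 7 without WT saline 2 and 3. Without single arrays they ran from 3 to 12, 3 to 14, 0 to 1 and 1 to 19, and from 0 to 1 for the interaction. Neighbours called under saline were 0 with either filter and without WT saline 2 and 3, 2 with array weights, 4 with the 2 groups alone and 4 within 5 Mb (0 to 2 without single arrays). Under HDM they were 2 with the 2 groups alone and 48 of 510 within 5 Mb (3 to 11). Over all genes, HDM in WT gave 2289 calls with the 50th percentile filter and 1057 without WT saline 2 and 3 (1960 to 3799 without single arrays). HDM in KO gave 2938 with array weights (1034 to 2673). Genotype under saline gave 19 with the 50th percentile filter, 110 with array weights, 98 with the 2 groups alone and 10 without WT saline 2 and 3 (14 to 66). Genotype under HDM gave 390 with the 2 groups alone (968 to 3831), and the interaction 680 with array weights, 258 with the replicate block and 12 without WT saline 2 and 3 (41 to 1019). Of 33 named single-gene calls, 188 of 846 values lost the call and 0 turned sign. The cause was not tested.

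Replicate numbers did not pair the samples: deviations of same-numbered arrays correlated between -0.28 and 0.33. The block changed no member's call. Further probe sets of the members could not be tried, since each has 1, and the mean of probe sets left their values as they were. Signal over background cannot be read from these values.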
